A study of Homo sapiens with 18 samples.

Results

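The 10 genes described here are those of the BBSome and of Bardet-Biedl syndrome that were listed by symbol: BBS1, BBS2, BBS4, BBS5, BBS7, BBS9, BBS10, BBS12, TTC8 and MKKS. They were found by matching the symbol in each row name of the gene table, which gave 10 of 58870 rows, and all 10 were among the 17962 genes tested. The genes were chosen by the measured levels of BBS2 in these libraries, which followed the full-length form of the transcription factor NRF1, so the values of BBS2 are given here as a description with no test. The question left to test was whether its 9 partners behaved in the same way.

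The data are bulk RNA-Seq of the human embryonic kidney line HEK293 Flp-In, which holds a single site for inserting a transgene, in 18 libraries with 3 in each of 6 conditions. The siRNA was a non-targeting control (siNT) or one directed at NRF1 mRNA (siNRF1), and the cells had no transgene, a transgene for full-length NRF1 (NRF1-FL) or one for NRF1 without exon 7 (NRF1-ΔE7). Both transgenes were switched on by doxycycline, carried a FLAG tag and were altered at the siRNA site so that the siRNA spared them. The labels put the doxycycline at 24 h after transfection for all 18 libraries, those without a transgene included. The study's methods put it earlier. The transgenic lines were stable hygromycin-resistant colonies, and whether the cells without a transgene were parental or carried a control vector was not given. Transgene and endogenous NRF1 RNA were counted together. No source states that the 3 libraries of a condition came from separate cultures, so the p-values measure the spread between these libraries, which may be technical.

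The BBSome is a coat-like complex that moves membrane proteins such as receptors into and out of the primary cilium, the antenna-like organelle of most vertebrate cells. BBS1, BBS2, BBS4, BBS5, BBS7, TTC8 (also called BBS8) and BBS9 are subunits of the complex, and MKKS (also called BBS6), BBS10 and BBS12 are relatives of the CCT chaperonins that help the first subunits to assemble. Loss of any of these genes causes Bardet-Biedl syndrome, with retinal degeneration, obesity, extra digits and kidney disease. NRF1 binds GC-rich promoters as a dimer and drives genes for mitochondria, cell growth and cilia, and part of its DNA-binding domain is encoded by exon 7.

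BBS2 (ENSG00000125124) lies on the minus strand of chromosome 16, and its canonical transcript begins at 56520024 and has 17 exons (GRCh38). In its RefSeq promoter window, from 250 bases before to 50 after the start, the hexamer TGCGCA stood at 111 and 80 bases before the start. The hexamer was chosen after the window had been read. The hexamer is its own reverse complement, and 8.24% of 35116 RefSeq promoter windows held it at least once and 1.07% at least 2 times. The letters CGCATGCG, the core of the palindromic NRF1 motif, and CATGCGC, which overlaps it, were searched on both strands. They were not found in the BBS2 window, and 2.02% and 4.43% of all windows held them. RefSeq windows were at hand for 9 of the 10 genes, and neither of these letter strings was found in any of them. Only exact letters were searched, so other forms of the NRF1 motif could have been missed.

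The promoter of MKKS is shown because MKKS was the 1 partner called between the NRF1-ΔE7 and NRF1-FL lines under siNRF1. MKKS (ENSG00000125863) lies on the minus strand of chromosome 20, with the canonical transcript of 6 exons starting at 10434222, and its window is chr20:10434173-10434472 on the minus strand (GRCh38.p14).
MKKS promoter: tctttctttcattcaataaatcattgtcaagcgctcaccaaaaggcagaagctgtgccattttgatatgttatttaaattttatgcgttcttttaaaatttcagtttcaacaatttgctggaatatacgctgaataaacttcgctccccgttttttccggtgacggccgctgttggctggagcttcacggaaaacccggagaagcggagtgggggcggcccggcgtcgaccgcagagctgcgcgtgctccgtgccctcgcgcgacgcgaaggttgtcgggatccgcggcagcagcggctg
This window held none of the strings CGCATGCG, CATGCGC and TGCGCA. In a wider window of 500 bases on either side of the start, MKKS had CATGCGC at 414 bases before the start and TGCGCA at 108 after it, and BBS12 had CATGCGC at 46 and TGCGCA at 48 after its start, 2 overlapping strings. In that wider window 11.5% of 17846 tested genes held CATGCGC, 22.4% held TGCGCA and 4.67% held CGCATGCG. BBS4 held TGCGCA 179 bases before its start, BBS9 held it 29 bases before, and BBS1 held it 405 bases after. The string GTTGCC, part of the X-box bound by RFX factors of ciliary genes, was found in the RefSeq window of BBS1, BBS5, BBS10 and TTC8 and in 12.2% of all windows. These are matches of letters and not binding sites.

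The siRNA itself is shown because every siNRF1 comparison rests on this one oligo. Its sense strand matches the canonical NRF1 transcript from base 499, and the seed of the guide strand (bases 2 to 8) is in capitals.
NRF1 siRNA sense strand: gcuauuguccucuguaucu
NRF1 siRNA guide strand: aGAUACAGaggacaauagc
A match to the seed, CTGTATC, was found once in the canonical 3′ UTR of BBS10 and once in that of BBS5. It was not found in the 3′ UTR of the other 8 genes, BBS2 and MKKS included. Of 14245 tested genes with a 3′ UTR, 11.0% held such a match.

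Levels are given as CPM, counts relative to the library total, scaled by TMM, in replicate order. NRF1 RNA stood at 31.1, 29.9 and 29.3 CPM in siNT and at 7.19, 9.25 and 7.70 CPM in siNRF1 where no transgene was present, and the log2 fold change was -1.92 ± 0.06 (SE; edgeR quasi-likelihood test, adjusted p = 5.9e-18). In siNRF1 cells it stood at 49.3, 50.4 and 49.1 CPM with NRF1-FL and at 37.3, 37.9 and 39.9 CPM with NRF1-ΔE7. The 2 isoforms were therefore not at equal CPM under siNRF1, the log2 difference of NRF1-ΔE7 from NRF1-FL being -0.37 ± 0.05 (adjusted p = 9.0e-07). CPM is not scaled to transcript length and NRF1-ΔE7 lacks exon 7, and the part of length in this difference was not tested. A difference in dose and the isoform cannot be told apart in that comparison. Library totals ran from 31.2M to 44.8M counts, and the lowest count behind any of the 10 genes was 146. HEK293 identity markers summed to 1808 to 2423 CPM, and of these KRT8 (-0.64) and KRT18 (-0.54) fell and PAX2 (0.84) rose with siNRF1 without a transgene, and of blood markers HBB was at 0 and PTPRC reached 0.252 CPM. The 8 blood markers summed to 24.2 to 33.3 CPM, most of it HBA1 and CD68, which moved in opposite directions with siNRF1 without a transgene (0.90 ± 0.11 and -1.09 ± 0.09), as HBA2 rose by 1.32, and the 5 fibroblast markers to 10.4 to 14.5 CPM, most of it COL1A1. KRT5, a keratin of basal epithelium not typical of these cells, was at 12.6 CPM in siNRF1 replicate 3, 2.02 in siNRF1 replicate 1, 1.41 in siNRF1 with NRF1-ΔE7 replicate 2 and 0.494 in siNT with NRF1-ΔE7 replicate 2, and under 0.1 CPM in the other 14 libraries. The 3 basal markers summed to at most 14.2 CPM, with KRT14 at up to 0.095. Partner results that no longer passed without those 4 libraries are named beside the values. That fit keeps 1 siNRF1 library without a transgene, taken to vary like the other groups. The share of counts from mitochondrial DNA was 0.767% to 0.975% in the siNT libraries and 1.19% to 1.66% in the siNRF1 libraries of the 3 lines, and its part in the siRNA comparisons was not tested.

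BBS2, a subunit of the BBSome core, stood at 41.6, 38.6 and 41.5 CPM in siNT cells and at 5.39, 5.16 and 5.30 CPM in siNRF1 cells without a transgene. The 2 groups were far apart, with the siNRF1 mean at 13.0% of the siNT mean. With NRF1-FL, BBS2 stood at 29.5, 31.1 and 32.0 CPM under siNRF1, and these 3 libraries lay between the other groups without overlap. With NRF1-ΔE7 it stood at 5.46, 5.43 and 5.15 CPM under siNRF1, a group that overlapped the siNRF1 cells without a transgene. Of the 35.3 CPM lost with siNRF1, NRF1-FL cells held back 72.5% and NRF1-ΔE7 cells 0.181%, and the mean under siNRF1 was 5.77 times higher with NRF1-FL than with NRF1-ΔE7. With siNT, BBS2 stood at 44.7, 45.2 and 45.9 CPM in the NRF1-FL line and at 44.0, 42.8 and 42.0 CPM in the NRF1-ΔE7 line. In log2 terms BBS2 was lower by siNRF1 by -2.94 without a transgene, by -0.55 in the NRF1-FL line and by -3.01 in the NRF1-ΔE7 line, and it differed between the isoforms by -2.53 under siNRF1 and by -0.08 under siNT. These are the values that brought the list about. In the annotation used here a gene on the opposite strand overlaps BBS2, and the strand setting of the counting is not stated. Whether part of the BBS2 counts came from that gene was not tested.

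**Figure D1:**
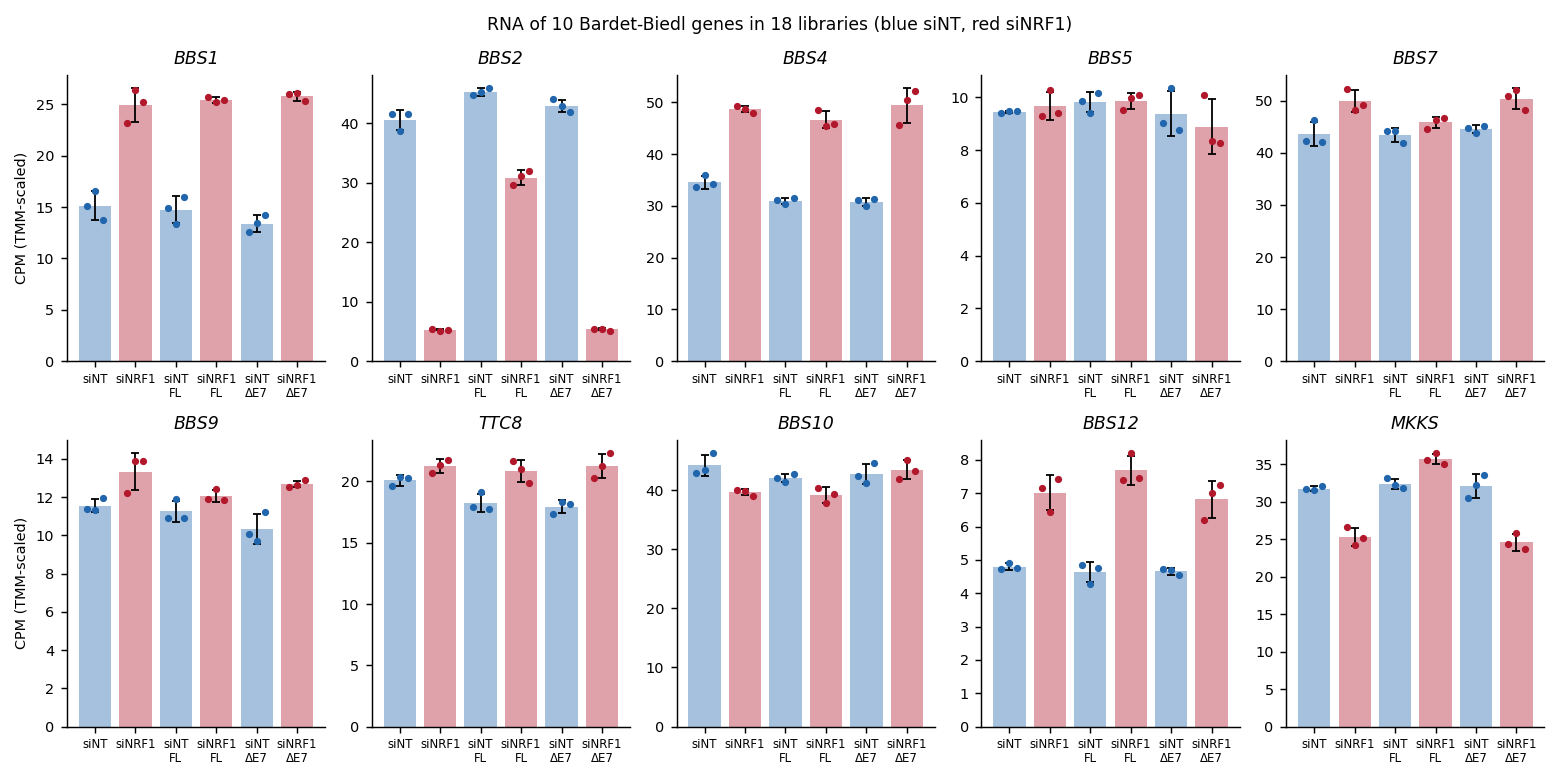
RNA level of each of the 10 genes in CPM (y axis, from 0) in the 6 conditions (x axis). Points are single libraries, bars the mean of 3 and error bars the SD, with siNT in blue and siNRF1 in red. BBS2 stands at 5.15 to 5.46 CPM in siNRF1 cells with no transgene or with NRF1-ΔE7, MKKS is lower in those same 2 groups and highest in siNRF1 cells with NRF1-FL, and BBS1, BBS4 and BBS12 are higher in every siNRF1 group.

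Across the 9 partners, siNRF1 without a transgene did not lower the genes as a group. A gene is said to have risen or fallen at an adjusted p under 0.05, and is called when its log2 fold change is also beyond 0.5 in either direction. Of the 9, 5 rose, 2 fell and 2 did not pass, while 32.1% of all genes tested rose and 32.4% fell. The call was made for 2 partners, BBS1 and BBS12, both higher, against 28.9% of all genes. The median log2 fold change of the 9 was 0.20 and that of all genes was 0.01. None of the 6 BBSome partners fell in this comparison. In the NRF1-FL line 5 rose and 1 fell (all genes 32.2% and 31.3%) and 3 were called (27.1% of all genes). In the NRF1-ΔE7 line 6 rose and 1 fell (all genes 34.5% and 33.6%) and 3 were called (32.8% of all genes). The partners called in both transgenic lines were BBS1, BBS4 and BBS12. In bulk RNA, fewer cells of a kind and less RNA per cell cannot be told apart.

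The comparison that asks about the isoform, NRF1-ΔE7 against NRF1-FL under siNRF1, gave 1 partner that fell, 2 that rose and 6 that did not pass. Of all genes, 17.8% fell and 13.9% rose in it. The 1 called partner was MKKS, where 6.21% of all genes were called. With siNT, where endogenous NRF1 was present, 0 of 9 partners passed at an adjusted p under 0.05 by edgeR, against 15.5% of all genes, and 0 were called, against 2.21%. At an unadjusted p under 0.05, 0 of 9 passed as well, and 0 of 9 passed in DESeq2. Among the tests of whether the siRNA effect itself differed between lines, MKKS was the only partner of 9 that passed in the main edgeR fit.

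**Figure D2:**
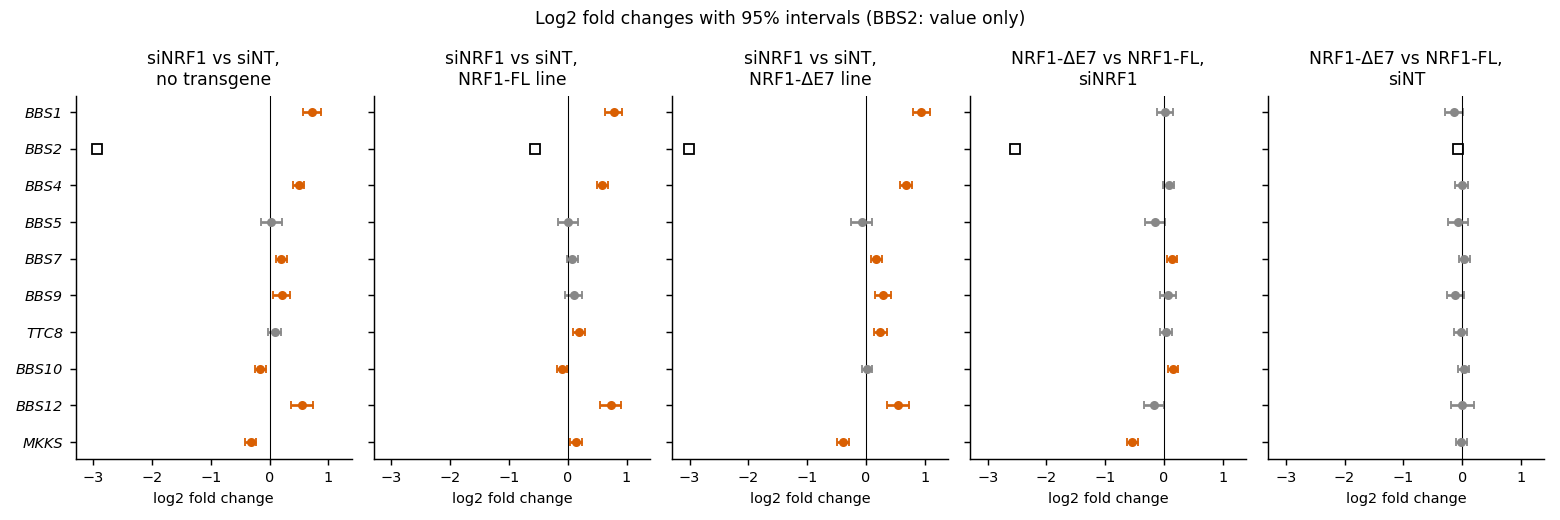
Log2 fold changes (x axis) of the 10 genes (y axis) in 5 comparisons, with 95% intervals from edgeR. Orange points passed at an adjusted p under 0.05, grey points did not, and BBS2 is an open square with no interval. MKKS sits left of 0 in the NRF1-ΔE7 against NRF1-FL panel under siNRF1, at -0.54, while the other partners lie between -0.18 and 0.15.

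MKKS, whose protein resembles a chaperonin subunit and acts in BBSome assembly, was the partner nearest to BBS2 in pattern. It stood at 31.7, 31.5 and 32.1 CPM in siNT and at 26.6, 24.2 and 25.2 CPM in siNRF1 cells. All 3 siNRF1 libraries lay below all siNT libraries, and the fall was -0.32 ± 0.05 (adjusted p = 1.4e-06). With NRF1-FL it stood at 33.1, 32.2 and 31.8 CPM under siNT and at 35.5, 36.4 and 35.1 CPM under siNRF1. Here the siRNA group was the higher one, by 0.14 ± 0.04 (adjusted p = 7.2e-03). With NRF1-ΔE7 it stood at 30.5, 32.2 and 33.6 CPM under siNT and at 24.3, 25.9 and 23.7 CPM under siNRF1, a fall of -0.39 ± 0.04 (adjusted p = 7.0e-08). Under siNRF1 the NRF1-FL and NRF1-ΔE7 libraries did not overlap, and NRF1-ΔE7 was lower by -0.54 ± 0.04 (adjusted p = 2.1e-09), with a 95% interval from -0.63 to -0.44.

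The siRNA effect on MKKS in the NRF1-FL line differed from that without a transgene by 0.47 ± 0.06 (adjusted p = 2.1e-05), and that in the NRF1-ΔE7 line differed from that in the NRF1-FL line by -0.53 ± 0.06 (adjusted p = 2.8e-06). That between the NRF1-ΔE7 line and no transgene was -0.06, with a 95% interval from -0.20 to 0.08 (adjusted p = 0.70). In these 3 tests 5.33%, 7.19% and 2.03% of all genes passed, and 1.90%, 2.24% and 0.156% were called. MKKS was called in the second of them only. Between the NRF1-ΔE7 line and no transgene 0 of 9 partners passed, with 4 at an unadjusted p under 0.05 (BBS1, BBS4, TTC8 and BBS10). The size set MKKS apart from BBS2: its siNRF1 mean was 79.8% of siNT, against 13.0% for BBS2, and the level with NRF1-FL exceeded that with NRF1-ΔE7 by 1.45 times, against 5.77 times. NRF1-FL cells under siNRF1 held MKKS above the siNT level without a transgene, at 112%, while BBS2 reached 76.1%.

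Reads at the MKKS locus could also be counted to 2 further gene models of the table, AL034430.1 and AL034430.2, which overlap MKKS on the same strand. Both stayed at or under 1.16 CPM. MKKS summed with both stood at 32.1 ± 0.29 CPM in siNT, 25.3 ± 1.21 in siNRF1, 35.7 ± 0.67 in siNRF1 with NRF1-FL and 24.6 ± 1.12 in siNRF1 with NRF1-ΔE7 (SD, n = 3), so the order of the conditions was the same with them. SLX4IP, which starts 1083 bases away in the other direction, was looked at after its distance was known. Under siNRF1 its level with NRF1-ΔE7 was below that with NRF1-FL by -0.23 ± 0.07 (adjusted p = 9.5e-03), and its siNRF1 difference without a transgene, -0.02, did not pass.

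BBS10 and BBS12, the other chaperonin-like genes, did not share the MKKS pattern. BBS12 rose with siNRF1 in all 3 lines. It stood at 4.71, 4.91 and 4.76 CPM in siNT and at 7.17, 6.43 and 7.44 CPM in siNRF1 cells, groups that did not overlap, with a log2 fold change of 0.55 ± 0.09 (adjusted p = 4.8e-06). In the NRF1-FL line it went from 4.86, 4.29 and 4.76 CPM to 7.40, 8.19 and 7.47 CPM (0.73 ± 0.08, adjusted p = 6.5e-08). In the NRF1-ΔE7 line it went from 4.72, 4.71 and 4.53 CPM to 6.20, 6.99 and 7.25 CPM (0.55 ± 0.08, adjusted p = 4.0e-06). NRF1-ΔE7 and NRF1-FL under siNRF1 differed by -0.18, with a 95% interval from -0.35 to -0.0041, and did not pass after adjustment (adjusted p = 0.097). Without the 4 libraries with KRT5 RNA the BBS12 rise without a transgene was 0.42 (adjusted p = 9.2e-03), past the test and short of 0.5, so that the number of partners called in that comparison went from 2 to 1.

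BBS10 stood between 37.8 and 46.2 CPM in all 18 libraries. It fell by -0.16 ± 0.04 with siNRF1 without a transgene (adjusted p = 1.6e-03) and by -0.10 ± 0.04 in the NRF1-FL line (adjusted p = 0.030). In the NRF1-ΔE7 line its difference was 0.02 and did not pass. Under siNRF1 it was higher with NRF1-ΔE7, at 42.0, 45.1 and 43.2 CPM, than with NRF1-FL, at 40.3, 37.8 and 39.4 CPM, by 0.15 ± 0.04 (adjusted p = 5.6e-03). That is the opposite order to MKKS and BBS2. With upper-quartile scaling in place of TMM, neither siNRF1 fall of BBS10 passed (-0.07 and -0.02). Its difference in the NRF1-ΔE7 line then passed as a rise of 0.12 (edgeR, adjusted p = 0.012). The fall in the NRF1-FL line also did not pass with at least 10 counts required in every library. Nor did it pass without siNT with NRF1-FL replicate 1 or replicate 3, or without siNRF1 with NRF1-FL replicate 2.

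Of the BBSome partners, BBS1, the subunit that docks the complex to membranes through the small GTPase ARL6, rose most. It stood at 15.1, 16.5 and 13.7 CPM in siNT and at 23.1, 26.4 and 25.2 CPM in siNRF1 cells (0.72 ± 0.07, adjusted p = 1.9e-09). In the NRF1-FL line it went from 14.9, 13.4 and 16.0 CPM to 25.7, 25.2 and 25.4 CPM (0.78 ± 0.07, adjusted p = 4.1e-10). In the NRF1-ΔE7 line it went from 12.6, 13.5 and 14.2 CPM to 26.0, 26.1 and 25.3 CPM (0.94 ± 0.07, adjusted p = 1.4e-11). In each line every siNRF1 library lay above every siNT library. Under siNRF1 the isoforms differed by 0.02, with a 95% interval from -0.11 to 0.15 (adjusted p = 0.84), so a difference of the size of BBS2 lies far outside the interval. The siRNA effect did not differ between lines past the test, the largest difference being 0.22 between NRF1-ΔE7 and no transgene (adjusted p = 0.26).

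The BBS1 locus overlaps ZDHHC24 on the opposite strand, and no source used here gives the strand setting of the counting, so reads of the shared stretch cannot be assigned with certainty. ZDHHC24, a gene of the palmitoyltransferase family, moved the other way, from 17.3, 15.5 and 16.7 CPM to 9.88, 10.4 and 11.0 CPM without a transgene (-0.67 ± 0.10, adjusted p = 2.6e-06). The levels of BBS1, of ZDHHC24 and of AP002748.4, a model that overlaps BBS1 on the same strand, summed to 31.7 ± 1.20 CPM in siNT and 35.9 ± 1.82 in siNRF1 cells (SD, n = 3). In the NRF1-FL line the sums were 30.5 ± 3.05 and 35.0 ± 1.76 CPM, and in the NRF1-ΔE7 line 29.5 ± 1.77 and 35.7 ± 0.91 CPM. The sum was thus higher under siNRF1 by less than BBS1 alone.

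BBS4, a subunit that binds pericentriolar material protein PCM1, rose in the same 3 comparisons. It stood at 33.6, 36.0 and 34.2 CPM in siNT and at 49.2, 48.8 and 48.0 CPM in siNRF1 cells (0.49 ± 0.04, adjusted p = 1.2e-09). In the NRF1-FL line it went from 31.0, 30.3 and 31.6 CPM to 48.6, 45.5 and 45.9 CPM (0.59 ± 0.05, adjusted p = 6.9e-11). In the NRF1-ΔE7 line it went from 31.0, 29.9 and 31.4 CPM to 45.7, 50.4 and 52.1 CPM (0.68 ± 0.04, adjusted p = 3.3e-12). The groups did not overlap in any line. The isoforms under siNRF1 differed by 0.08 (95% interval -0.01 to 0.18), which did not pass (adjusted p = 0.15). Without siNRF1 with NRF1-ΔE7 replicate 1, its lowest library of that group, the difference was 0.14 and passed (adjusted p = 9.0e-03), and so did the difference of 0.23 between the siRNA effects in the NRF1-ΔE7 line and without a transgene (adjusted p = 0.022).

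The remaining BBSome subunits moved little. BBS7 stood at 42.3, 46.3 and 42.2 CPM in siNT and at 52.3, 48.2 and 49.2 CPM in siNRF1 cells, and rose by 0.20 ± 0.04 (adjusted p = 2.7e-04). It also rose by 0.18 ± 0.04 in the NRF1-ΔE7 line (adjusted p = 7.4e-04). Its 0.08 in the NRF1-FL line did not pass under TMM but did under upper-quartile scaling (0.16). NRF1-ΔE7 exceeded NRF1-FL under siNRF1 by 0.14 ± 0.04 (adjusted p = 0.015). That difference did not pass without siNRF1 with NRF1-FL replicate 1 (0.12) or without siNRF1 with NRF1-ΔE7 replicate 2 (0.12). Without the 4 libraries with KRT5 RNA, the rise without a transgene was 0.14 and did not pass (adjusted p = 0.053), and neither did the difference between the isoforms under siNRF1 (0.12, adjusted p = 0.071).

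BBS9, a subunit that binds several others in the complex, rose by 0.20 ± 0.06 without a transgene (adjusted p = 8.2e-03) and by 0.29 ± 0.06 in the NRF1-ΔE7 line. Its 0.10 in the NRF1-FL line did not pass under TMM but did under upper-quartile scaling (0.18). Its libraries ranged from 9.71 to 13.9 CPM. TTC8, a subunit of tetratricopeptide repeats, ranged from 17.3 to 22.3 CPM. It rose by 0.19 ± 0.05 in the NRF1-FL line (adjusted p = 1.9e-03) and by 0.25 ± 0.05 in the NRF1-ΔE7 line, and its 0.08 without a transgene did not pass under TMM but did under upper-quartile scaling (0.17). BBS5, a subunit that binds phosphoinositides, ranged from 8.25 to 10.3 CPM and passed in 0 of 12 comparisons by edgeR, with 0 of 12 at an unadjusted p under 0.05 and 0 of 12 in DESeq2. Its siNRF1 difference without a transgene was 0.03, with a 95% interval from -0.14 to 0.20. Leaving out siNRF1 with NRF1-ΔE7 replicate 1, at 10.1 CPM against 8.33 and 8.25 CPM in the other two, BBS5 under siNRF1 was lower with the ΔE7 isoform than with the full-length one by -0.24 and passed (adjusted p = 0.018), and it was lower with siNRF1 in the NRF1-ΔE7 line by -0.19 (adjusted p = 0.039).

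BBIP1, a small BBSome subunit outside the list, rose with siNRF1 by 0.23 ± 0.05 without a transgene (adjusted p = 2.6e-04), by 0.20 ± 0.05 in the NRF1-FL line and by 0.27 ± 0.05 in the NRF1-ΔE7 line, and its isoform difference of 0.10 under siNRF1 did not pass. Of the 6 BBSome partners and BBIP1, none fell with siNRF1 in any of the 3 lines.

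Against cells without a transgene, NRF1-FL under siNRF1 raised MKKS by 0.49 ± 0.04 (adjusted p = 1.4e-08) and lowered BBS7 by -0.12 ± 0.04 (adjusted p = 0.036). Of all genes, 12.7% rose and 9.72% fell in that comparison, 0 of 9 partners were called and 4.8% of all genes were. Leaving out siNRF1 replicate 1, one of the libraries with KRT5 RNA, MKKS was called in it. NRF1-ΔE7 under siNRF1 left 8 of 9 partners without a passed difference from cells without a transgene, and only BBS10 passed (0.13 ± 0.04, adjusted p = 0.019), where 21.4% of all genes passed and 2.35% were called. Under siNT, BBS4 was lower in the NRF1-FL line by -0.16 ± 0.05 (adjusted p = 0.041), the only partner of 9, where 8.14% of all genes passed and 1.24% were called. In the NRF1-ΔE7 line under siNT, BBS4 was lower by -0.17 ± 0.05 (adjusted p = 0.017) and TTC8 by -0.16 ± 0.05 (adjusted p = 0.033), where 16.3% of all genes passed and 2.22% were called. The difference of BBS4 in the NRF1-FL line and that of TTC8 did not pass in DESeq2 (adjusted p = 0.052 and 0.088). Without the 4 libraries with KRT5 RNA, the passed differences of BBS7, BBS10, BBS4 and TTC8 in this paragraph did not pass. All of these comparisons share control libraries with one another.

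The levels of the 10 genes in siNT cells were compared per kilobase of transcript. By the length of the canonical transcript the order was BBS2 (15.0 CPM per kb), BBS4 (14.0), BBS10 (12.4), BBS7 (11.4), TTC8 (9.20), MKKS (4.73), BBS1 (4.49), BBS5 (2.99), BBS9 (2.89) and BBS12 (1.48). The 3-library ranges overlapped between BBS2 and BBS4, between BBS10 and BBS7, between MKKS and BBS1 and between BBS5 and BBS9. By the union of all annotated exons BBS2 dropped to 2.41 CPM per kb, the seventh of 10, as its annotated exons add up to 16813 bases against 2704 in the canonical transcript. Which isoforms these cells make was not measured here, so the place of BBS2 in the order rests on the choice of length. The lengths are from a later GENCODE release than the one the study mapped its reads with.

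Across the 18 libraries the correlation with BBS2 of log2 CPM set MKKS apart from the other partners. This is a description with no test, since the libraries form 6 conditions and share the siRNA and the lines. Pearson's r with BBS2 was 0.898 for MKKS, the 585th of 14452 genes with a mean of at least 1 CPM, 0.269 for BBS5 and 0.179 for BBS10. It was -0.658 for BBS12, -0.700 for TTC8, -0.767 for BBS9, -0.768 for BBS1, -0.819 for BBS4 and -0.877 for BBS7. Spearman's rho of MKKS was 0.548, rank 5289. NRF1 RNA itself had an r of 0.677 and rank 3988. In siNRF1 cells with NRF1-ΔE7 its mean was 38.3 CPM, above the 30.1 CPM of siNT, while the mean of BBS2 was 5.35 CPM.

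The 8 genes most like BBS2 were SLC46A1 (r = 0.997), POMT1 (0.997), YEATS4 (0.996), RAB23 (0.995), RPS6KB1 (0.995), CCDC120 (0.994), NCAPH (0.994) and ANKRD26 (0.994). They encode in turn a folate transporter, a protein O-mannosyltransferase, a reader of acetylated histones, a small GTPase that restrains Hedgehog signalling, the S6 kinase, a centriole protein, a condensin subunit and a centriole distal appendage protein. Of these 8, 6 were also in the top 8 by the means of the 6 conditions and 0 by Spearman's rho. RAB23 stood at 59.4, 61.7 and 61.8 CPM in siNT, 26.1, 23.7 and 25.5 CPM in siNRF1, 59.4, 57.7 and 56.6 CPM in siNRF1 with NRF1-FL and 25.5, 25.2 and 25.2 CPM in siNRF1 with NRF1-ΔE7. ANKRD26 stood at 36.5, 40.1 and 38.4 CPM in siNT, 12.3, 12.3 and 12.1 CPM in siNRF1, 31.0, 32.3 and 31.4 CPM in siNRF1 with NRF1-FL and 11.1, 11.3 and 9.80 CPM in siNRF1 with NRF1-ΔE7. The spread of condition means was 3.09 log2 units for BBS2 and 0.97 to 2.01 for these 8, against 0.54 for MKKS, 0.94 for BBS1, 0.72 for BBS12 and 0.15 for BBS5.

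**Figure D3:**
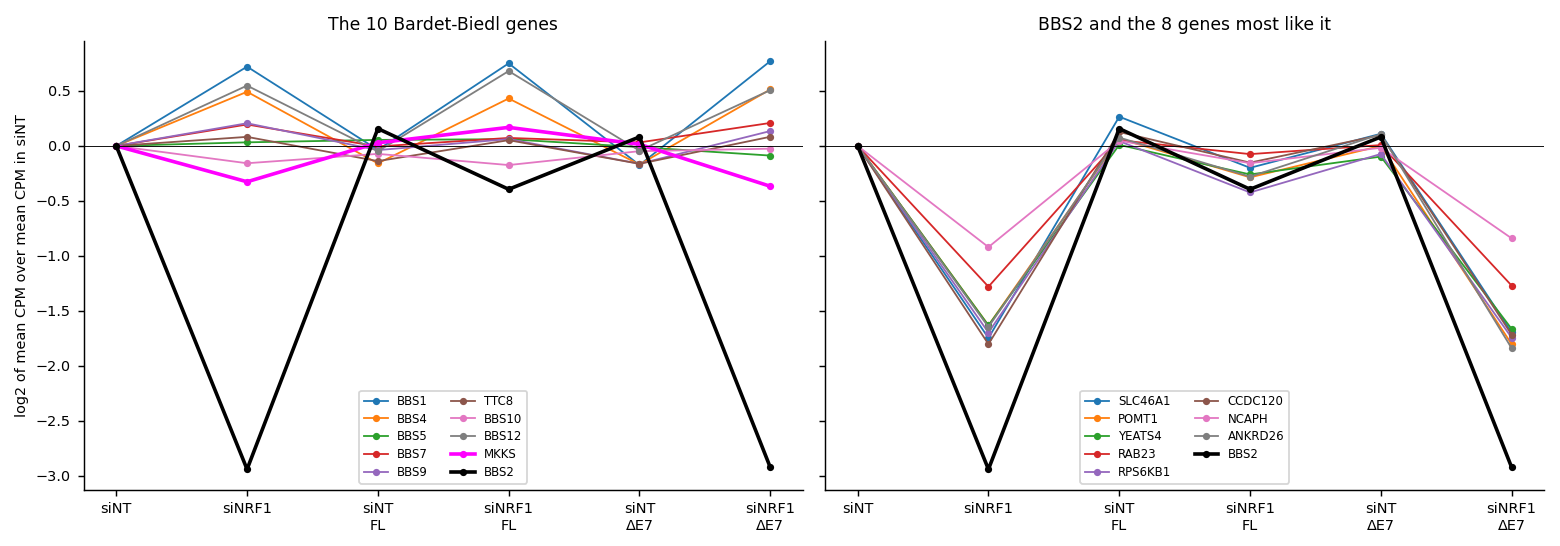
Log2 ratio of the mean CPM of each condition to the siNT mean (y axis) over the 6 conditions (x axis), for the 10 genes on the left and for BBS2 with the 8 genes most correlated with it on the right. Each point is the mean of 3 libraries. BBS2 (black) returns toward 0 with NRF1-FL and not with NRF1-ΔE7, the 8 correlated genes follow it at smaller size, and MKKS (magenta) is below 0 in the same 2 conditions but above 0 in siNRF1 cells with NRF1-FL.

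The genes that work with the BBSome were taken from lists chosen with earlier results of these data known. All 8 subunits of the CCT chaperonin, which joins the chaperonin-like proteins in assembling the BBSome, fell with siNRF1 without a transgene, where 32.4% of all genes fell, and their median was -0.52 against 0.01 for all genes. CCT6A went from 500, 497 and 506 CPM to 279, 268 and 274 CPM (-0.87 ± 0.02, adjusted p = 1.6e-19) and CCT4 from 663, 674 and 681 CPM to 399, 384 and 390 CPM (-0.78 ± 0.03, adjusted p = 1.0e-16). CCT8 fell by -0.13, and with upper-quartile scaling its -0.04 did not pass, leaving 7 of 8. All 8 also fell in the NRF1-FL line, with a median of -0.46 (31.3% of all genes fell), and in the NRF1-ΔE7 line, with a median of -0.61 (33.6% of all genes fell). NRF1-ΔE7 against NRF1-FL under siNRF1 gave 5 of 8 lower and 0 higher with a median of -0.10, against 17.8% lower among all genes, and 4 lower and 1 higher with RLE or upper-quartile scaling. Without the 4 libraries with KRT5 RNA all 8 fell without a transgene, and 5 were lower and 1 higher between the isoforms. The marker genes KRT8, KRT18, CD68, HBA1, HBA2 and PAX2 moved with siNRF1 too, and their part in the changes of these lists was not tested.

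Of 16 genes for BBSome recruitment and regulation, 10 rose and 4 fell with siNRF1 without a transgene (median 0.23), where 32.1% of all genes rose and 32.4% fell. It was 12 and 4 with upper-quartile scaling, and 9 and 4 without the libraries with KRT5 RNA. IFT22, an intraflagellar transport subunit, went from 24.9, 24.6 and 24.45 CPM to 54.8, 56.4 and 53.8 CPM (1.16 ± 0.04), and RABL2A, a GTPase of ciliary entry, rose by 1.12 ± 0.08, with the caution that its near copy RABL2B can share its reads. DZIP1, a centriole protein, went from 105.8, 105.8 and 105.8 CPM to 57.3, 55.4 and 58.1 CPM (-0.89 ± 0.03), and IQCB1, a transition zone protein, fell by -0.53 ± 0.04. NRF1-ΔE7 against NRF1-FL under siNRF1 gave 4 higher and 3 lower of 16 and none called, where 13.9% of all genes were higher and 17.8% lower, and 3 and 3 without the libraries with KRT5 RNA. Of 16 other Bardet-Biedl genes, 10 rose and 4 fell without a transgene (median 0.35), against the same 32.1% and 32.4%. It was 12 and 2 with upper-quartile scaling, and 8 and 3 without the libraries with KRT5 RNA. LZTFL1, which limits BBSome entry to the cilium and is in both lists, went from 25.3, 25.1 and 28.4 CPM to 50.3, 47.3 and 46.7 CPM (0.87 ± 0.05). In the isoform comparison 5 of the 16 were lower and 1 higher, none called, against 17.8% and 13.9% of all genes. With upper-quartile scaling 3 were lower and 3 higher, and without the libraries with KRT5 RNA 3 were lower and 0 higher.

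Of 21 genes for BBSome cargo and the ciliary membrane, 18 were tested, and 9 rose and 5 fell with siNRF1 without a transgene (median 0.21), where 32.1% of all genes rose and 32.4% fell. It was 12 and 4 with upper-quartile scaling, and 8 and 4 without the libraries with KRT5 RNA. PKD2, a polycystin channel, went from 23.7, 22.4 and 23.3 CPM to 7.69, 8.15 and 9.34 CPM (-1.46 ± 0.07) and stayed low with NRF1-FL under siNRF1, at 6.91, 6.92 and 7.96 CPM. LEPR, the leptin receptor, fell by -0.78 ± 0.05. GLI2, a transcription factor of Hedgehog signalling, rose by 1.01 ± 0.06, and TOM1L2, an adaptor for BBSome cargo, by 0.99 ± 0.04. The siRNA effect in the NRF1-FL line was tested against that without a transgene, where 5.33% of all genes passed. In it 2 of the 18 passed higher and 1 lower. In the recruitment list 0 of 16 passed, in the other Bardet-Biedl list 0 of 16 and in the RFX and FOXJ1 list 0 of 8. In the isoform comparison 4 of 18 were higher and 3 lower (13.9% and 17.8% of all genes), and 4 and 2 with upper-quartile scaling or without the libraries with KRT5 RNA. HTR6, a serotonin receptor of cilia, was the one called. It stood at 6.78, 7.08 and 6.23 CPM with NRF1-FL and at 4.11, 3.53 and 3.50 CPM with NRF1-ΔE7 under siNRF1 (-0.85 ± 0.11), yet at 3.16, 3.82 and 3.41 CPM in siNRF1 against 3.34, 2.93 and 2.58 CPM in siNT without a transgene, a difference of 0.22 that did not pass. Under siNT it stood at 3.48, 2.82 and 3.47 CPM with NRF1-FL and at 2.26, 2.21 and 2.12 CPM with NRF1-ΔE7, so the libraries of the 2 lines did not overlap there either. Of 9 RFX and FOXJ1 genes, 8 were tested. The list was made by family, and only some of its members are factors that switch on ciliary genes. Without a transgene 4 rose and 2 fell (32.1% and 32.4% of all genes), with a median of 0.42. That median was 0.24 without the libraries with KRT5 RNA. RFX7 went from 35.1, 41.1 and 36.7 CPM to 18.3, 17.7 and 18.5 CPM (-1.04 ± 0.06), RFX5 fell by -0.78 ± 0.03 and RFX3 rose by 0.77 ± 0.08. In the isoform comparison 2 of 8 were lower, none called, against 17.8% of all genes. With upper-quartile scaling 1 was lower and 1 higher, and without the libraries with KRT5 RNA 1 was lower and 0 higher.

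**Figure D4:**
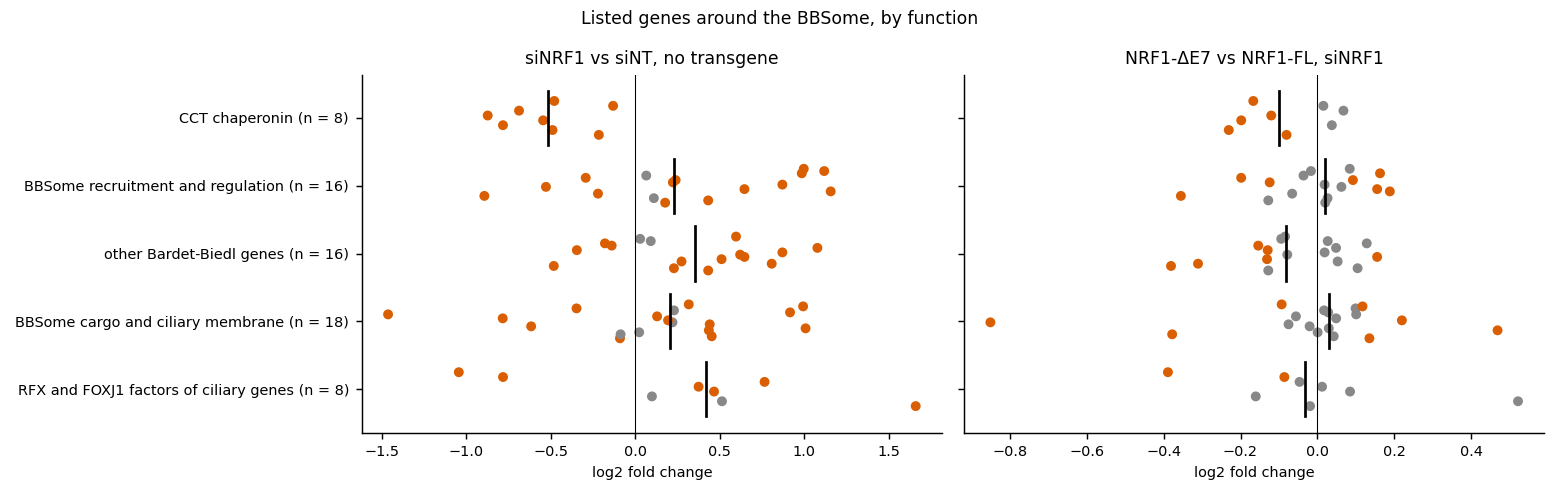
Log2 fold changes (x axis) of the genes of 5 lists (y axis, with the number tested) for siNRF1 against siNT without a transgene and, under siNRF1, for NRF1-ΔE7 against NRF1-FL. Each point is a gene, orange where it passed at an adjusted p under 0.05, and the bar is the median of the list. All 8 CCT genes lie left of 0 on the left, and the medians on the right lie between -0.10 and 0.03.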

How the data were processed

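Gene-level estimated counts were deposited by the authors, who trimmed reads with Cutadapt 1.18 and aligned them with STAR 2.7.0f to hg38 with GENCODE annotation. How reads were counted, and with which strand setting, no source used here states. The study's notes also name DESeq2 1.46.0. The kit was stranded. Of the values in the table, 91.9% were whole, and of 36 value columns the 18 that match no sample here were not used. Reads from genes that overlap or from near copies may be split by the counting.

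Estimated counts were rounded and genes with too few counts were removed with filterByExpr (minimum count 10), leaving 17962 of 58870. The fit used edgeR 4.0.16 in R 4.3.3 with TMM scaling and the quasi-likelihood test over all 18 libraries and 6 conditions, and p-values were adjusted by Benjamini-Hochberg over all genes tested. SE and 95% intervals (from 12 residual degrees of freedom) are of the log2 fold change. In all, 12 comparisons were fitted. The script was tested on simulated data. Library totals were 31.2M to 44.8M counts (median 38.3M). Alternatives were DESeq2 1.42.0, other scalings, filters and fold thresholds, a replicate block and each library left out. The fit without the libraries with KRT5 RNA was added after seeing the data.

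The 10 genes and all gene lists were chosen with earlier results of these data known. Named genes were the 10 members, NRF1 and BBIP1, up to 2 called genes of each list in each direction by size of change with a mean of at least 1 CPM, the 8 genes most correlated with BBS2, and overlapping or neighbouring genes. Positions and transcript lengths are from GENCODE 44, a later release than the one in the study's mapping, and promoters are from RefSeq. Some items, among them 1 gene that the rule names, are not reported here.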

Additional observations from a re-analysis of the deposited data

Results flagged for a closer look

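The siRNA effect on MKKS differed between the lines by a test of the difference itself. It differed by 0.47 on the log2 scale between the NRF1-FL line and cells without a transgene, and by -0.53 between the NRF1-ΔE7 line and the NRF1-FL line, both past the edgeR quasi-likelihood test (adjusted p = 2.1e-05 and 2.8e-06). Over all alternatives these values ran from 0.43 to 0.52 and from -0.56 to -0.49, and each passed.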

How the results depend on the processing

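Of 2808 fold changes of the 9 partners under alternatives, 2754 kept their side of the adjusted p threshold, 43 no longer passed and 11 newly passed. Where either value passed, 0 reversed in direction. Values that passed in neither fit could change sign and are among the 2754. BBS5 with siNRF1 without a transgene, for one, ran from -0.017 to 0.12. In the alternatives each of the 18 libraries was left out in turn for every comparison. Many of those libraries lay outside the groups compared, where little could change, so part of the agreement came from this design. MKKS between the isoforms under siNRF1 ran from -0.57 to -0.50 and passed in each. With no fold threshold, the partners called numbered 7 for siNRF1 without a transgene, 6 with NRF1-FL present, 7 with NRF1-ΔE7 present and 3 between the isoforms under siNRF1. They numbered 2 and 1 for NRF1-FL and NRF1-ΔE7 against no transgene under siNRF1, 1 and 2 for the same under siNT, and 1 for the siRNA effect in the NRF1-FL line against no transgene. With a threshold of 1 there were 0 in the first 4 of these and 0 for the siRNA effect in the NRF1-ΔE7 line against the NRF1-FL line. Without the libraries with KRT5 RNA there was 1 each for siNRF1 without a transgene, for NRF1-FL against no transgene under siNRF1 and for the siRNA effect in the NRF1-FL line against no transgene. In that fit siNRF1 without a transgene has 1 library, assumed to vary like the other groups.

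Leaving out 1 library gave 2 to 3 partners called without a transgene, 2 to 3 where NRF1-ΔE7 was present (2 without siNRF1 with NRF1-ΔE7 replicate 3), 0 to 1 for NRF1-FL against no transgene under siNRF1 and for the siRNA effect in the NRF1-FL line against no transgene (1 without siNRF1 replicate 1 in both), and 0 to 1 for the siRNA effect in the NRF1-ΔE7 line against the NRF1-FL line (0 without siNT with NRF1-ΔE7 replicate 3). Upper-quartile scaling moved the share of all calls that were lower from 52.6% to 42.3% without a transgene, from 51.6% to 40.4% with NRF1-FL and from 51.3% to 40.5% in the NRF1-ΔE7 line. Replicate numbers share no stated source and did not pair the libraries (correlations of deviations from -0.18 to 0.157). With the replicate block, the partners called stayed at 2 without a transgene and at 1 between the isoforms under siNRF1, MKKS was -0.54 there, and 0 partner calls changed. Over all genes the block gave 45 calls against 28 for the siRNA effect in the NRF1-ΔE7 line against no transgene. The counts behind BBS12, 146 to 347, are the lowest of the 10 genes and limit its precision most.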
